A study of Mus musculus with 12 samples.

Results

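Transcripts of 5 neutrophil primary granule genes were followed across 12 libraries of natural killer (NK) cells, which were sorted from mouse pancreatic tumours at day 21. The genes were Mpo, Elane, Prtn3, Ctsg and Prss57, chosen by symbol from the 27179 gene IDs of the deposited count table. All 5 were present and passed the filter on low counts, among 14182 genes tested. They had been picked with earlier results of these libraries in view, so their levels and fold changes are a description, and no p-value is given for them. The groups, with 3 libraries each, were the combination (cGAMP and anti-IL-35), anti-IL-35 alone, cGAMP alone and control IgG. All mice were labelled WT and carried tumours. cGAMP, a cyclic dinucleotide that activates STING, was injected intravenously at 10 µg on 4 occasions, and PBS was its vehicle. Anti-IL-35, which blocks a cytokine built from the Ebi3 and Il12a subunits, was injected into the peritoneum 3 times at 200 µg. Dosing began on day 8 for either agent, at intervals of 3 days. The sources used here did not give the age and strain of the mice, the gate of the sort, or whether libraries were made from different animals, so the spread between libraries may be technical.

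Primary (azurophil) granules are the first granules that a developing neutrophil makes, at the promyelocyte stage, and their genes are largely silent in mature neutrophils, which carry the finished proteins. Mpo encodes myeloperoxidase, which makes hypochlorous acid from hydrogen peroxide. Elane (neutrophil elastase), Prtn3 (proteinase 3), Ctsg (cathepsin G) and Prss57 (neutrophil serine protease 4) encode serine proteases, which the dipeptidyl peptidase cathepsin C converts to their active forms. Secondary granule genes such as Ltf and Camp follow at the myelocyte stage, and tertiary granule and mature genes such as Mmp9 and Cxcr2 come later. NK cells, in contrast, are lymphocytes whose granules hold perforin and granzymes.

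In the RefSeq annotation of GRCm38.p6, 3 of the genes lie on chromosome 10. Elane (Entrez 50701) spans chr10:79886312-79888216 on the plus strand, 3137 bp from Prtn3 (19152, chr10:79879667-79883174, plus strand). Prss57 (73106, chr10:79781474-79794684, minus strand) lies 84982 bp from Prtn3. Its span overlaps those of Fstl3, with 6 to 54 counts per library, and Palm, with 492 to 1611. Since it is not known whether counting used strand, reads of Prss57 and of these genes may not be fully separated, and Prss57 values are uncertain. Mpo (17523) spans chr11:87793784-87804412 on the plus strand and overlaps the noncoding gene Gm34064, and Ctsg (13035) spans chr14:56099885-56102574 on the minus strand, beside mast cell protease and granzyme genes.

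The windows from 250 bases before to 50 after the annotated start are shown for the 4 genes with a RefSeq promoter entry, because these genes shared a level pattern across libraries. Each is written 5′ to 3′ on the strand of its gene (GRCm38.p6), and capitals mark AGGAAGT, a match to the core recognised by ETS factors such as PU.1.
Mpo promoter, chr11:87793534-87793833: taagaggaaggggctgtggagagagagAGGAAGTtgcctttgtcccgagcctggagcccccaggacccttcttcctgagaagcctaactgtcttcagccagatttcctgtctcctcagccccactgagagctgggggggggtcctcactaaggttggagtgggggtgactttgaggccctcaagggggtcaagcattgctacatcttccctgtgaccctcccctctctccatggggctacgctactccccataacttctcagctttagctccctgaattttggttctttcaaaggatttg
Elane promoter, chr10:79886062-79886361: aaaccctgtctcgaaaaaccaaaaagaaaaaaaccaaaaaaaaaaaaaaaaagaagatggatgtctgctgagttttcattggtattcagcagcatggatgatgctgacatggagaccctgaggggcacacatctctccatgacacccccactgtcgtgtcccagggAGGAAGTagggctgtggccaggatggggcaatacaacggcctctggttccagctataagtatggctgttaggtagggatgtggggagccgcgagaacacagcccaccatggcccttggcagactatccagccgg
Prtn3 promoter, chr10:79879417-79879716: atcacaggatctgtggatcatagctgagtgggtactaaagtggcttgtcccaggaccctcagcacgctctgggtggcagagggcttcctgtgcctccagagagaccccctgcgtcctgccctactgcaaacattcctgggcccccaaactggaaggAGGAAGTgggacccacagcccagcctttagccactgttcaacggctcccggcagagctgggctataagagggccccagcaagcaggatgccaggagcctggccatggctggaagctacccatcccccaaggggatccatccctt
Ctsg promoter, chr14:56102525-56102824, minus strand: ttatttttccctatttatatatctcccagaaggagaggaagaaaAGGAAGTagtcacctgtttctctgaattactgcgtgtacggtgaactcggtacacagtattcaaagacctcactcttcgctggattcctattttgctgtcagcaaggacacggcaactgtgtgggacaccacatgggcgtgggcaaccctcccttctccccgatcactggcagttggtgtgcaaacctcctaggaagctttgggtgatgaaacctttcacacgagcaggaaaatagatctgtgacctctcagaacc

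The motifs were chosen after the sequences had been read, and both strands were searched. AGGAAGT was found in 4 of 4 windows, against 9.35% of 32851 RefSeq promoters of the same length. Its last base lay at position -78 from the start in Elane, -88 in Prtn3, -200 in Ctsg and -217 in Mpo. CAACNG, a strict form of the core bound by MYB, was found in 3 of 4 windows, against 35% of all promoters. Mpo had no match to this form. The form with T as its first base was not searched, and the Mpo window holds a match to it. AGGAAGT and CAACNG were both present in 3 of 4, against 3.4%. In Elane and Prtn3 the order was the same, with AGGAAGT, then CAACNG, then TATAA. TTGCNNAA, a strict form of the C/EBP core, was found in 0 of 4 (10.8% of all promoters), and looser forms were not searched. TGNGGT, a RUNX core, was found in 1 of 4 (45.8%), and TATAA in 3 of 4 (24.9%). The TATAA match began at -31 in Elane and -32 in Prtn3 on the gene's strand, but at -236 on the opposite strand in Ctsg. PU.1, MYB and C/EBP factors are known to act on the mouse Elane promoter. The matches are a description of letters and not of binding.

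Mpo was the most abundant of the 5 by read count. Levels are read counts relative to library size after TMM scaling (trimmed mean of M-values), in CPM, listed in order of replicate number. Mpo had 356, 353 and 315 CPM in combination libraries, 281, 297 and 312 CPM in anti-IL-35 libraries, 193, 193 and 203 CPM in cGAMP libraries, and 63.3, 51.6 and 56.9 CPM in IgG libraries. The lowest combination library was above the highest anti-IL-35 library, and no pair of groups overlapped. Against IgG, the Mpo level was 5.96-fold higher in the combination (95% interval 5.47 to 6.49), 5.18-fold higher with anti-IL-35 (4.76 to 5.64) and 3.43-fold higher with cGAMP (3.15 to 3.74). These values rest on 875 to 6462 reads per library.

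Elane had 129, 127 and 115 CPM in combination libraries, 109, 112 and 135 CPM in anti-IL-35 libraries, 86.8, 82.1 and 72.6 CPM in cGAMP libraries, and 23.4, 23.1 and 26.9 CPM in IgG libraries. The combination and anti-IL-35 libraries overlapped, and both groups lay above all cGAMP libraries, which lay above all IgG libraries. The fold over IgG was 5.04 in the combination (4.48 to 5.68), 4.85 with anti-IL-35 (4.31 to 5.46) and 3.28 with cGAMP (2.9 to 3.7).

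Prtn3 had 148, 125 and 123 CPM in combination libraries, 143, 135 and 149 CPM in anti-IL-35 libraries, 91.2, 91.3 and 87.2 CPM in cGAMP libraries, and 34.9, 31.4 and 37.1 CPM in IgG libraries. It was the only one of the 5 whose mean was lower in the combination than with anti-IL-35 alone, at 132 ± 14.2 CPM against 142 ± 7.18 CPM (SD, n = 3 each), and those libraries overlapped. The fold over IgG was 3.83 in the combination (3.44 to 4.25), 4.13 with anti-IL-35 (3.72 to 4.58) and 2.61 with cGAMP (2.34 to 2.9).

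Ctsg had 36.4, 36.0 and 33.0 CPM in combination libraries, 29.0, 29.6 and 29.1 CPM in anti-IL-35 libraries, 15.7, 19.1 and 20.5 CPM in cGAMP libraries, and 7.07, 7.73 and 7.20 CPM in IgG libraries. As for Mpo, the 4 groups stood in the order combination, anti-IL-35, cGAMP, IgG without overlap. The fold over IgG was 4.79 in the combination (3.98 to 5.75), 3.98 with anti-IL-35 (3.31 to 4.79) and 2.52 with cGAMP (2.08 to 3.04).

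Prss57 was the rarest, with 110, 198 and 126 reads in combination libraries, 137, 156 and 137 in anti-IL-35 libraries, 55, 54 and 61 in cGAMP libraries, and 25, 21 and 25 in IgG libraries. In CPM these were 6.46, 11 and 6.33 in the combination, 7.25, 7.16 and 7.11 with anti-IL-35, 4.30, 3.65 and 3.19 with cGAMP, and 1.62, 1.24 and 1.43 with IgG. Combination replicate 2 stood above the others, and the coefficient of variation of that group was 33.7%, against 8.31% for counting error alone. The fold over IgG was 5.54 in the combination (3.71 to 8.27), 5.01 with anti-IL-35 (3.36 to 7.47) and 2.58 with cGAMP (1.7 to 3.92).

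**Figure D1:**
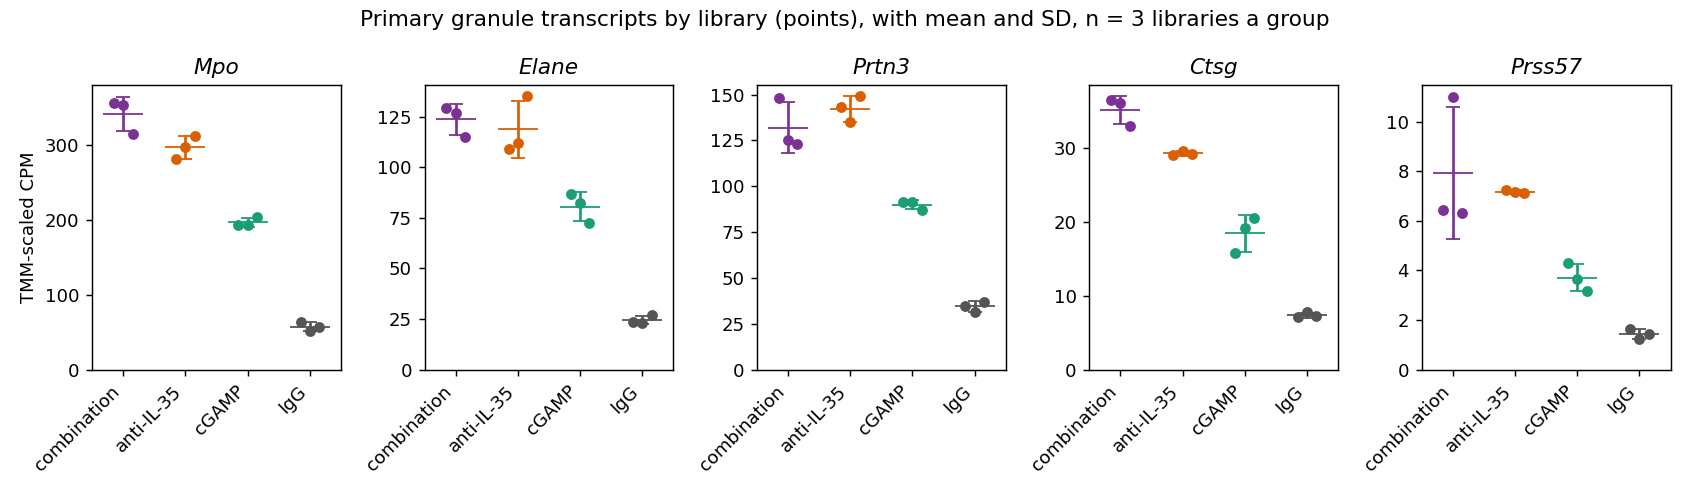
Levels of the 5 primary granule genes in TMM-scaled CPM (vertical axis, from 0, own scale per gene) in the 12 libraries by group. Points are libraries, and bars are the mean and SD of 3. Every IgG library lies below every library of the other groups, and combination and anti-IL-35 libraries lie close together.

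All 5 genes were called higher (adjusted p under 0.05, edgeR quasi-likelihood test over all genes) in each treatment against IgG. Of the 14182 genes tested, 15.7% were called higher and 7.50% lower in the combination, 15.7% higher and 9.32% lower with anti-IL-35, and 9.37% higher and 3.56% lower with cGAMP. The share of genes with every library above every IgG library was 21.6% for the combination, 20.9% for anti-IL-35 and 18.1% for cGAMP, and all 5 genes were among them in each case. The members' median log2 fold change was 2.34 in the combination, 2.28 with anti-IL-35 and 1.38 with cGAMP, beside medians of -0.019, -0.024 and 0.02 over all genes tested. The 3 comparisons share the same IgG libraries. Since the choice of genes used these contrasts, nothing is read from the counts.

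Between treatments, all 5 were called higher in the combination than with cGAMP (9.99% of genes tested) and higher with anti-IL-35 than with cGAMP (11.5%). Their libraries did not overlap in either comparison, as for 15.9% and 16.5% of genes tested. The log2 fold changes of combination over cGAMP were 0.80 ± 0.0564 (SE) for Mpo, 0.62 ± 0.0776 for Elane, 0.55 ± 0.0701 for Prtn3, 0.93 ± 0.121 for Ctsg and 1.10 ± 0.261 for Prss57. Those of anti-IL-35 over cGAMP ran from 0.56 for Elane to 0.96 for Prss57. The combination differed little from anti-IL-35 alone. Only Mpo was called higher there, by a log2 fold change of 0.20 ± 0.0552 (95% interval 0.09 to 0.31), among 3.67% of genes tested called higher and 2.17% called lower. Ctsg had 0.27 (0.03 to 0.50) and was not called, although its libraries did not overlap, as for 10.2% of genes. The log2 fold changes of the other 3 were 0.06 for Elane (-0.095 to 0.21), -0.11 for Prtn3 (-0.25 to 0.03) and 0.15 for Prss57 (-0.35 to 0.64). The call of Mpo was lost when combination replicate 1 or 2 or anti-IL-35 replicate 1 or 2 was left out, with values of 0.17, 0.18, 0.16 and 0.20.

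**Figure D2:**
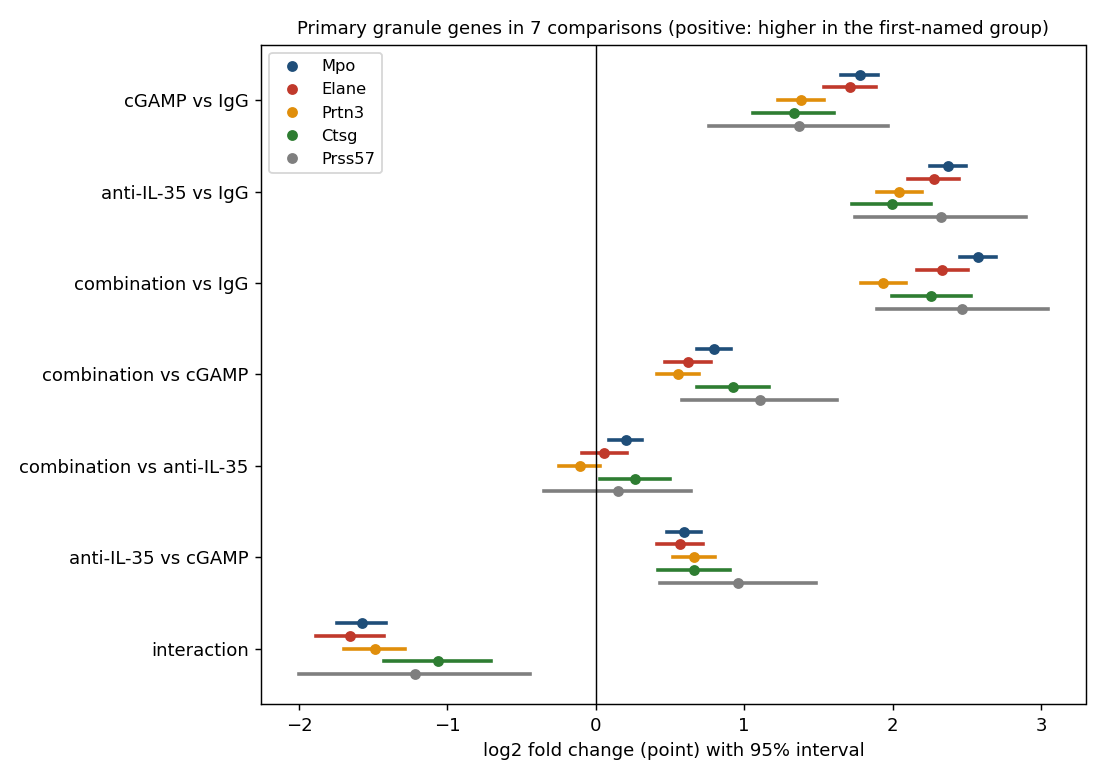
Log2 fold changes (points) with 95% intervals (lines) of the 5 genes in 7 comparisons, positive where the first-named group is higher; the interaction is the effect of cGAMP with anti-IL-35 minus its effect without. All intervals lie above 0 in the comparisons with IgG and with cGAMP, those for Elane, Prtn3 and Prss57 cross 0 in combination against anti-IL-35, and all lie below 0 for the interaction.

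The effect of cGAMP was smaller when anti-IL-35 was also given. The Mpo level was higher by 1.78 on the log2 scale with cGAMP alone than with IgG, and by 0.20 in the combination than with anti-IL-35 alone. The difference, the interaction term, was -1.58 ± 0.0823 for Mpo, -1.66 ± 0.115 for Elane, -1.49 ± 0.102 for Prtn3, -1.07 ± 0.179 for Ctsg and -1.22 ± 0.388 for Prss57. All 5 were called lower for the interaction, as were 6.78% of genes tested. The later genes of the lineage shared this, with 9 of 9 secondary granule genes (median -1.38) and 15 of 15 tertiary granule and mature neutrophil genes (median -1.17) called lower, against a median of -0.019 over all genes tested. The product of the single-treatment folds for Mpo was 17.8, against 5.96 observed in the combination, and that for Elane was 15.9, against 5.04. On the linear scale the combination was also below the IgG level plus both single effects. Mpo measured 341 CPM in the combination, against 435 ± 10.2 CPM (SE) for the IgG level plus both effects, a difference of -94.5 ± 16.7 CPM. The differences for the others were -51.2 ± 10.4 CPM for Elane, -65.8 ± 9.43 CPM for Prtn3, -5.14 ± 1.81 CPM for Ctsg and -1.52 ± 1.58 CPM for Prss57, whose difference was within its error. The interaction call of Prss57 was lost when combination replicate 1 or 3, anti-IL-35 replicate 1 or 2, cGAMP replicate 1, or IgG replicate 2 or 3 was left out (-1.08 to -1.22), while its call of combination over cGAMP was lost without combination replicate 2 (0.79).

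Per length of transcript, Prtn3, Elane and Mpo stood at similar levels, and Prss57 was far below. In RPKM (CPM per kilobase of exon, with exon lengths of 984 to 2904 bp), the combination had 129 ± 13.8 for Prtn3, 126 ± 7.83 for Elane, 117 ± 7.88 for Mpo, 35.1 ± 1.83 for Ctsg and 2.79 ± 0.941 for Prss57 (SD, n = 3). In IgG libraries these levels were 33.6 ± 2.82, 24.9 ± 2.15, 19.7 ± 2.02, 7.32 ± 0.347 and 0.503 ± 0.0674. In the combination the means of the 3 leading genes lay within the SD of Prtn3 of each other. In IgG libraries Prtn3 stood above Elane, and Elane above Mpo, by more than their SDs.

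The mix of the 5 transcripts differed between groups. Prtn3 counts per 100 Mpo counts were 41.7, 35.5 and 39.0 in combination libraries, 50.9, 45.5 and 47.8 in anti-IL-35 libraries, 47.2, 47.4 and 42.9 in cGAMP libraries, and 55.0, 60.8 and 65.3 in IgG libraries. All combination libraries lay below all libraries of the other groups, and all IgG libraries lay above them. Elane counts per 100 Mpo counts were 36.3 ± 0.295 in the combination, 40.0 ± 3.03 with anti-IL-35, 41.1 ± 4.75 with cGAMP and 43.0 ± 5.45 with IgG. The combination libraries lay below those of anti-IL-35 and IgG, and the other groups overlapped. Ctsg per 100 Mpo was 10.3 ± 0.163 in the combination, 9.88 ± 0.513 with anti-IL-35, 9.37 ± 1.09 with cGAMP and 12.9 ± 1.92 with IgG. These ratios do not depend on how libraries were scaled. Over the 12 libraries the 5 genes correlated with each other at Pearson's r of 0.95 to 0.992 on log2 levels, lowest for Prss57. Libraries of a group share their treatment, so this describes mainly the group means.

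Among 10475 genes whose mean was 5 CPM or more, the 10 with the highest Pearson's r to the mean standardised level of the 5, over 12 libraries, were Camp (0.997), Fcnb (0.995), Ngp (0.994), Actn1 (0.992), Itgb2l (0.991), Cd177, Chil3, Trem3, Ltf and Retnlg (0.988). Of these 10, 5 were on the list of secondary granule genes (Camp, Ngp, Cd177, Chil3 and Ltf), 2 on that of precursor markers (Fcnb and Trem3) and 1 on that of mature neutrophil genes (Retnlg), and 2 were on no list, Actn1, a widely expressed actinin, and Itgb2l. The 95th percentile of r over all candidates was 0.922, and the median -0.034. Camp, the cathelicidin of secondary granules, averaged 1000 CPM in the combination, 965 CPM with anti-IL-35, 637 CPM with cGAMP and 247 CPM with IgG. Fcnb, a ficolin of neutrophil precursors, averaged 78.0, 78.6, 53.1 and 21.8 CPM in the same order of groups.

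Secondary and later neutrophil genes rose beside the primary granule genes and were far more abundant. Of 9 secondary granule genes tested, 9 rose in each treatment against IgG, and of 15 tertiary granule and mature neutrophil genes 15 rose in each. The median log2 fold change of the secondary list was 1.93 in the combination, 2.08 with anti-IL-35 and 1.24 with cGAMP, and that of the mature list 1.86, 1.97 and 1.06. All gene lists were also written with earlier results of these libraries in view, so their calls and adjusted p-values are a description. Ltf (lactoferrin) rose by 2.07 ± 0.0351 in the combination, 2.25 ± 0.0353 with anti-IL-35 and 1.30 ± 0.0345 with cGAMP. S100a9, a calcium-binding protein abundant in neutrophil cytosol, averaged 4920 ± 63 CPM in the combination, 5580 ± 288 CPM with anti-IL-35, 2870 ± 34.2 CPM with cGAMP and 1240 ± 24.3 CPM with IgG. Summed over both lists, levels were 22490 ± 75.1 CPM in the combination, 24870 ± 690 CPM with anti-IL-35, 13220 ± 103 CPM with cGAMP and 5970 ± 117 CPM with IgG, while the 5 primary granule genes summed to 640 ± 43.6, 594 ± 34.1, 389 ± 2.28 and 125 ± 8.54 CPM. In bulk libraries, fewer cells of a type and less RNA per cell cannot be told apart.

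Relative to these later genes, the primary granule genes were on average lowest with IgG, and the order of the other groups depended on the gene they were set against. As a percent of summed secondary granule counts, the 5 genes made up 6.77, 6.55 and 5.93 in combination libraries, 5.35, 5.42 and 5.86 in anti-IL-35 libraries, 6.44, 6.35 and 6.31 in cGAMP libraries, and 4.86, 4.42 and 4.88 in IgG libraries. All IgG libraries lay below all others, and the anti-IL-35 libraries lay below those of both groups that received cGAMP. Mpo counts per 100 S100a9 counts were 6.93 ± 0.491 in the combination, 5.32 ± 0.497 with anti-IL-35, 6.85 ± 0.187 with cGAMP and 4.62 ± 0.386 with IgG (SD, n = 3 each), and IgG replicate 1 (5.0) lay just below the lowest anti-IL-35 library (5.01). As a percent of summed mature neutrophil counts the 5 genes made up 5.11 ± 0.377 in the combination, 4.21 ± 0.392 with anti-IL-35, 5.47 ± 0.0806 with cGAMP and 3.76 ± 0.236 with IgG, and the lowest anti-IL-35 library (3.88) lay below the highest IgG library (3.97). Mpo counts per 100 Camp counts were 34.01 ± 2.48, 30.7 ± 1.17, 30.9 ± 2.15 and 23.1 ± 1.24 in the same order of groups, with the anti-IL-35 libraries inside the range of the cGAMP libraries. In the combination against anti-IL-35 alone, 5 of 9 secondary and 6 of 15 mature genes fell. The count of secondary genes was 3 with the replicate block, with only the groups compared, and without any single combination library or anti-IL-35 replicate 2. Libraries scaled on NK receptor transcripts gave 3 genes of each list called higher instead, but that scaling moved the median of all genes in this comparison to 0.19, and 2476 genes were called higher and 63 lower, against 521 and 308. In the main fit of this comparison, Mmp9, a tertiary granule protease, had -0.16 ± 0.0373. Cxcr2, a chemokine receptor of mature neutrophils, had -0.26 ± 0.0465, and both were called.

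**Figure D3:**
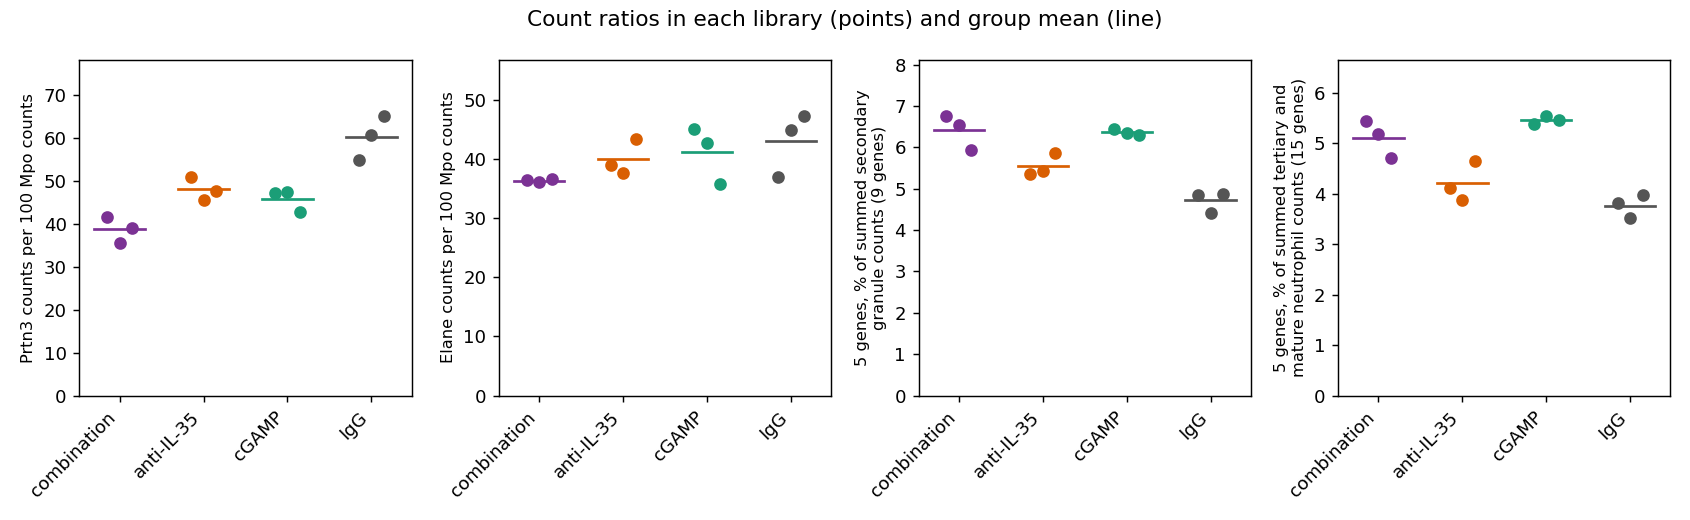
Count ratios per library (points) with group means (lines), from 0 on each vertical axis: Prtn3 and Elane per 100 Mpo counts, and the 5 genes as a percent of summed secondary granule and of summed tertiary and mature neutrophil counts. IgG libraries are highest for Prtn3 per Mpo and lowest as a percent of secondary granule counts, where cGAMP and combination libraries are highest.

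Of 11 granulocyte precursor markers, 3 rose and 2 fell in the combination, 4 rose and 2 fell with anti-IL-35, and 3 rose and 1 fell with cGAMP. The 2 that fell in the combination were 1 without combination replicate 1, and neither fell without combination replicate 2 or IgG replicate 2 or 3. Their median log2 fold change in the combination was 0.21, against -0.019 for all genes tested. With NK receptor scaling, which moved that median of all genes to 0.22, 6 precursor markers were called higher in the combination. Those with the strongest rise were Fcnb (1.84 ± 0.0874, 1.85 ± 0.0872 and 1.28 ± 0.0889 in the combination, anti-IL-35 and cGAMP), Trem3 (1.77, 1.81 and 1.12), a receptor of myeloid cells, and Ms4a3 (1.55, 1.76 and 1.00), a marker of granulocyte and monocyte progenitors. Plac8 fell in all 3 (-0.15, -0.21 and -0.33), though with NK receptor scaling neither its value with the combination (0.09) nor that with anti-IL-35 (-0.18) was called. Of 10 transcription factors tested, 5 rose in the combination, 5 with anti-IL-35 and 3 with cGAMP, with a median log2 fold change of 0.30 in the combination. With NK receptor scaling 10 were called higher in the combination, and with DESeq2 5 with cGAMP. Cebpe, which drives the secondary granule programme, rose by 1.96 ± 0.114 in the combination, 1.87 ± 0.114 with anti-IL-35 and 1.27 ± 0.116 with cGAMP. Cebpd rose by 1.77, 1.96 and 0.93, and Spi1, which encodes PU.1, by 1.02, 1.09 and 0.29, the last not called with NK receptor scaling (0.17). Cebpb rose by 1.37 and 1.35 in the combination and with anti-IL-35, and its value with cGAMP was 0.28 (adjusted p = 0.0933). Cebpa, which is needed to form granulocyte progenitors, fell by 0.30 with cGAMP (adjusted p = 0.00458, edgeR), a call lost without cGAMP replicate 3. Cebpa was higher by 0.25 in the combination than with IgG (adjusted p = 0.0121, edgeR), which was not called with library totals alone (0.09). Irf8, a monocyte lineage factor, fell by 0.26 with anti-IL-35, not called with NK receptor scaling (-0.22). Gfi1, a repressor needed for neutrophil differentiation, was not called, with 0.21 with cGAMP and 0.16 with anti-IL-35. Of 10 cell cycle genes, 3 rose in the combination and 5 with anti-IL-35. Scaled on library totals alone, 1 was called in each, and with NK receptor scaling 5 in the combination. The anti-IL-35 count was 2 with no filter on low counts and without anti-IL-35 replicate 1 or IgG replicate 3, and 3 without anti-IL-35 replicate 2 or 3 or IgG replicate 1. Mki67, a proliferation marker, rose by 0.32 ± 0.0551 and 0.29 ± 0.0551, and had -0.10 ± 0.056 with cGAMP.

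Transcripts of genes whose proteins act on or beside the granule enzymes moved unevenly. Of 6 such genes tested, 2 rose and 1 fell in the combination and with anti-IL-35, and 3 rose and 1 fell with cGAMP. Ctsc, which encodes cathepsin C, the activator of the serine proteases, fell. It had 349 ± 9.2 CPM in the combination, 295 ± 14.9 CPM with anti-IL-35, 357 ± 5.87 CPM with cGAMP and 396 ± 7.94 CPM with IgG. Its log2 fold changes over IgG were -0.18, -0.42 and -0.15 in that order, and that of the combination was 0.06 with scaling on NK receptors. The call with cGAMP was lost when single libraries were left out, cGAMP replicate 1 among them. NK cells and other leukocytes also express Ctsc. The inhibitors Serpinb1a, an intracellular inhibitor of elastase, cathepsin G and proteinase 3, and Slpi, a secreted inhibitor of elastase, rose. Serpinb1a had 79.0 ± 6.68 CPM in the combination, 86.0 ± 1.82 CPM with anti-IL-35, 56.5 ± 6.67 CPM with cGAMP and 35.4 ± 1.62 CPM with IgG. Slpi rose by 1.04 ± 0.054 in the combination, 0.90 ± 0.0539 with anti-IL-35 and 0.63 ± 0.0543 with cGAMP. Cstb, a cysteine protease inhibitor, was not called in any of the 3.

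Of 6 subunits of the NADPH oxidase, which supplies the superoxide that yields hydrogen peroxide for myeloperoxidase, 6 rose in the combination, 6 with anti-IL-35 and 4 with cGAMP. With NK receptor scaling 0 rose with cGAMP. Ncf1 (p47phox) rose by 0.93 ± 0.0458, 1.04 ± 0.0457 and 0.32 ± 0.046 in the combination, anti-IL-35 and cGAMP, and Cybb, the catalytic subunit, by 0.48, 0.38 and 0.22. Other contents of primary granules moved less. These were 14 tested genes of lysosomal hydrolases, membrane proteins, lysozyme and the proteoglycan core serglycin, many of which macrophages and lymphocytes also express, and Bpi did not pass the filter. In the combination 6 rose, with anti-IL-35 6 rose and 2 fell, and with cGAMP 5 rose. The counts that rose were 12 in the combination and 1 with cGAMP under NK receptor scaling, and library totals gave 4 that fell in the combination and 7 with anti-IL-35. The median was 0.08, -0.01 and 0.10 in the combination, anti-IL-35 and cGAMP. Cd63, a granule membrane tetraspanin, rose by 0.98 ± 0.105, 1.18 ± 0.104 and 0.55 ± 0.107, and Srgn by 0.78 ± 0.042, 0.77 ± 0.0419 and 0.30 ± 0.042, the last not called with NK receptor scaling (0.17). Lyz2 (lysozyme) rose by 0.55 and 0.36 in the combination and with anti-IL-35, and had 0.03 with cGAMP (adjusted p = 0.63).

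**Figure D4:**
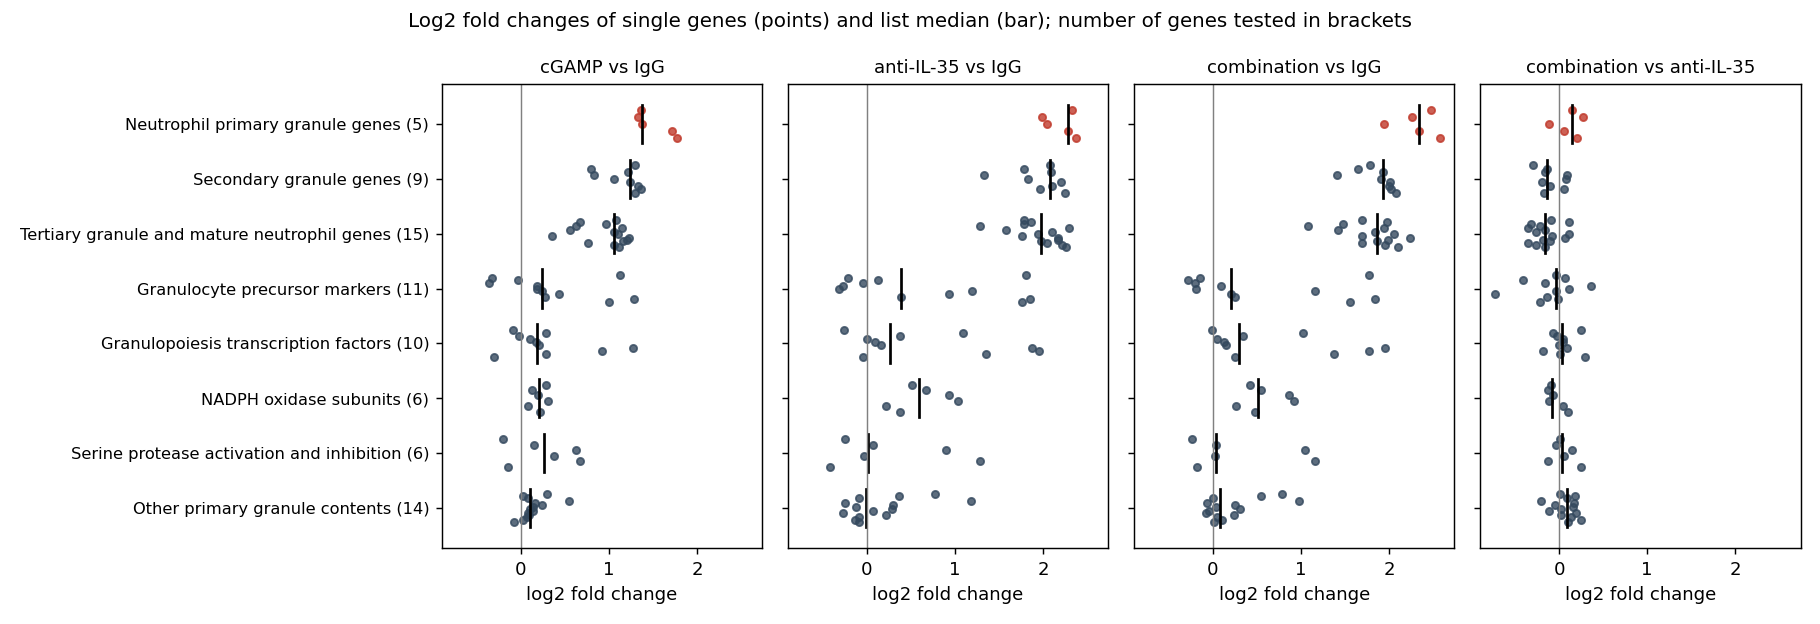
Log2 fold changes of single genes (points) and list medians (bars) for the 5 primary granule genes (red) and 7 other lists in 4 comparisons; the horizontal axis is the log2 fold change and brackets give the number of genes tested. The medians of the primary, secondary and mature lists lie to the right of the others in the comparisons with IgG, while single genes overlap. Most points lie near 0 in combination against anti-IL-35, where the secondary and mature medians (-0.14 and -0.16) are below the primary one (0.15).

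Genes next to the members moved in part. Of 21 protein-coding genes within 50 kb of a member, 15 were tested, and 5 rose in the combination, 4 with anti-IL-35 and 2 with cGAMP, where 1 (Tspoap1, -0.77 ± 0.267, adjusted p = 0.0493) fell. The median was 0.05, 0.01 and -0.10. R3hdm4, next to Med16 on the far side of Elane from Prtn3, rose by 0.98 ± 0.0701 in the combination, 1.10 ± 0.0699 with anti-IL-35 and 0.45 ± 0.0715 with cGAMP, and Arid3a, a DNA-binding protein gene, by 1.00, 0.91 and 0.32. Palm, which overlaps Prss57, rose by 0.94 in the combination and 1.06 with anti-IL-35 and had 0.19 with cGAMP (adjusted p = 0.189). Fstl3, on the other side of Prss57, rose by 1.61 ± 0.589 in the combination (adjusted p = 0.0402). Ptbp1, Plppr3 and Med16, which lie closer to Prtn3 and Elane, were not called in any of the 3, with Med16 at 36.1 ± 3.37 CPM in the combination and 39.3 ± 2.29 CPM with IgG. Cfd, 2636 bp from Elane, had at most 7 counts in a library, and Lpo, 2015 bp from Mpo and encoding another peroxidase, at most 2. Beside Ctsg, the basophil protease gene Mcpt8 rose by 1.29 ± 0.13 in the combination and 0.88 ± 0.13 with anti-IL-35 and had -0.07 ± 0.137 with cGAMP (adjusted p = 0.833), while Gzmd and Gzme had 0 counts in all 12 libraries.

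**Figure D5:**
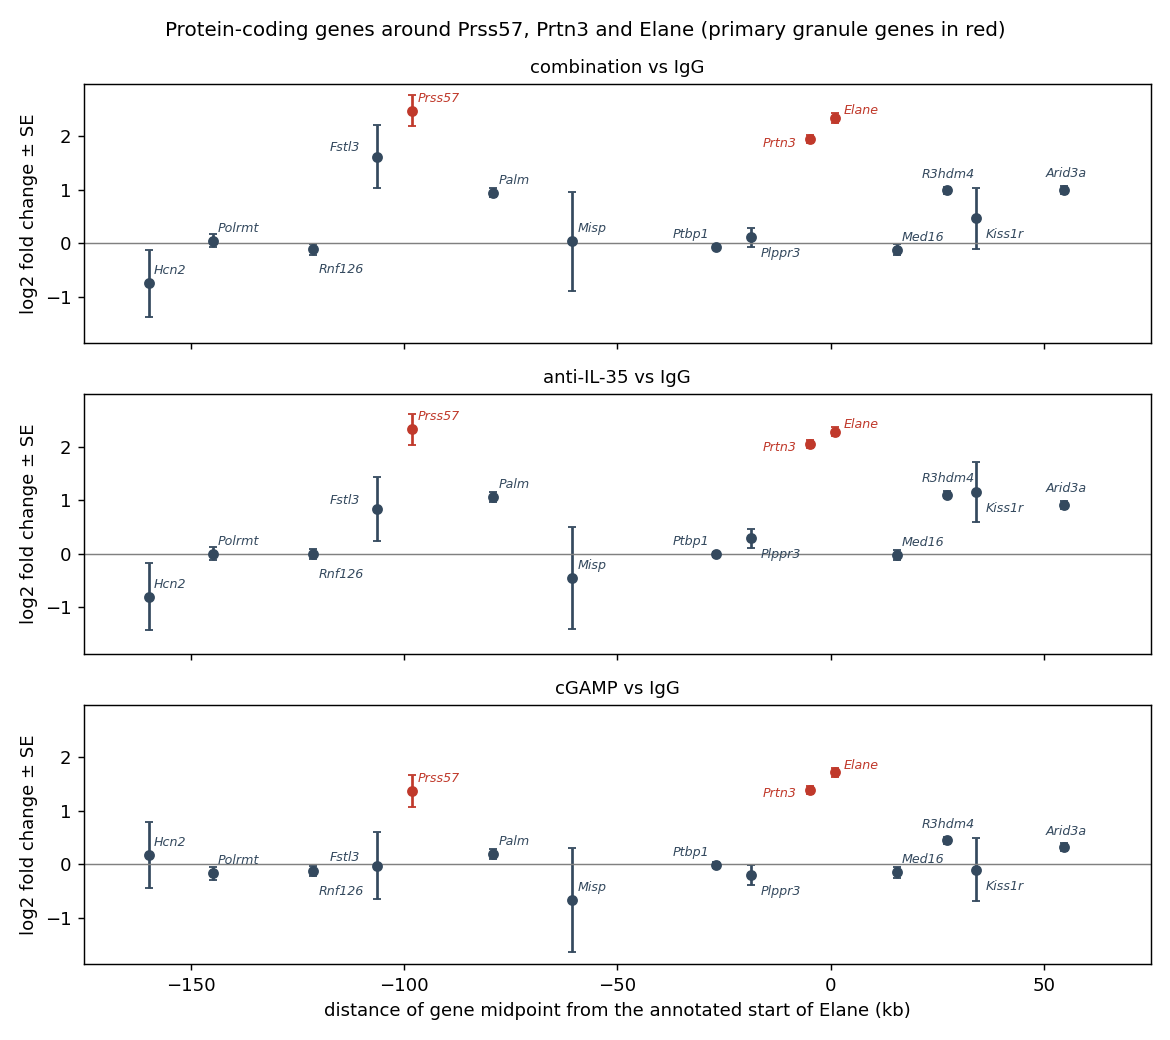
Log2 fold changes ± SE (vertical axis) of tested protein-coding genes around Prss57, Prtn3 and Elane in each treatment against IgG, by distance of the gene midpoint from the start of Elane in kb (horizontal axis). The 3 primary granule genes (red) lie above their neighbours, of which R3hdm4 and Arid3a rose in all 3 comparisons and Med16, Ptbp1 and Plppr3 stayed near 0.

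The libraries held transcripts of several cell types. They had 12811353 to 22217766 counts each, of which the 5 genes took 0.0123% to 0.065%. NK markers (13 genes, all tested) were present throughout, with sums of 5969 ± 54.7 CPM in the combination, 6537 ± 215 CPM with anti-IL-35, 7009 ± 58.4 CPM with cGAMP and 6412 ± 24.6 CPM with IgG. The 9 B cell markers summed to 15120, 5978, 14810 and 13840 CPM, the 14 monocyte and macrophage markers to 3956, 3359, 4023 and 4032 CPM, the 8 erythroid markers to 1095, 608, 1226 and 501 CPM, and the 8 T cell markers to 339, 316, 412 and 442 CPM in the same order of groups. None of these sums followed the order of the primary granule genes, but a sum does not show its single markers. Of the 14 monocyte and macrophage markers, 3 rose and 5 fell in the combination, and 2 rose and 11 fell with anti-IL-35. With cGAMP 2 rose and 4 fell. With NK receptor scaling 6 rose and 1 fell in the combination. Cd14, on that list, rose by 1.19 in the combination and 0.80 with anti-IL-35, and had 0.03 with cGAMP, not called. The 14 mast cell, basophil and eosinophil markers summed to 702 ± 7.56 CPM in the combination, 642 ± 14 CPM with anti-IL-35, 431 ± 7.73 CPM with cGAMP and 297 ± 2.24 CPM with IgG. Hdc, which neutrophils also express, made up 399, 382, 162 and 76.5 CPM of that. Without Hdc the sums were 302 ± 4.98, 260 ± 9.58, 268 ± 4.54 and 221 ± 5.53 CPM, an order that the primary granule genes did not have. Single markers of this list differed. Of 11 tested, Hdc included, 9 rose and 1 fell in the combination. With anti-IL-35 6 rose and 2 fell, and with cGAMP 4 rose. Cpa3 averaged 15.9, 13.7, 7.23 and 5.6 CPM in the same order of groups, so its means stood in the order of those of Mpo. Unlike Mpo, Cpa3 was not called in cGAMP against IgG (0.36) or in combination against anti-IL-35 (0.22). Siglecf (24.2, 33.2, 10.7 and 9.27 CPM) was highest with anti-IL-35, and Ccr3 (51.9, 41.2, 80 and 60.8 CPM) with cGAMP. The mast cell tryptase Tpsab1 had 0 counts in all libraries. Mitochondrial transcripts took 5.43% to 6.87% of counts in combination and anti-IL-35 libraries, 7.71% to 8.62% in cGAMP libraries and 5.98% to 6.20% in IgG libraries. The part of these markers and of the mature neutrophil transcripts in the levels of the 5 genes was not tested.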

How the data were processed

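RNA of sorted tumoral NK cells was sequenced in 12 libraries (RNeasy extraction, 1 µg RNA, NEBNext Ultra). The authors deposited raw read counts per gene, made with STAR 2.7.7a, SAMtools 1.15 and featureCounts on mm10, per the submitters' processing notes. The sources used here did not give the featureCounts version, the annotation, the strand setting or the handling of multimapping reads. Totals were 12811353 to 22217766 counts per library. Pairs of libraries within a group differed beyond counting noise (chi-square over degrees of freedom 3.26 to 11.8), and each was counted once.

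The 5 genes and all lists were chosen with earlier results of these data known. IDs without a symbol (1049, with 0.251% of counts) were kept. The fit used edgeR 4.0.16 in R 4.3.3: filterByExpr by group (minimum count 10, leaving 14182 genes), TMM scaling, and a single robust quasi-likelihood fit of 4 groups with 8 residual degrees of freedom and a common biological coefficient of variation of 0.0958. Genes with a Benjamini-Hochberg adjusted p under 0.05 over all genes tested were called, and all adjusted p-values come from this test. The fit was tested on simulated data. The interaction is combination minus anti-IL-35, minus cGAMP minus IgG. Correlations used log2(CPM + 0.5). Exon lengths came from GENCODE M21, and positions and promoters from RefSeq. Named genes were drawn from the members, the 10 genes most like the members, neighbours within 50 kb and the lists. From each list, up to 4 with the smallest p over the comparisons with IgG were eligible, and those called against most of their list. The NK, B cell, T cell and erythroid lists were given as sums only. Not every eligible gene of the other lists is named. Gfi1 was added after its values were seen, and 1 listed gene is not reported here.

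Alternatives were RLE size factors, library totals, scaling on 9 NK receptor genes, no filter, 1 CPM in 6 libraries, a replicate block, only the groups compared, DESeq2 1.42.0, and leaving out each library.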

Additional observations from a re-analysis of the deposited data

Results flagged for a closer look

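The effect of cGAMP on the 5 primary granule genes differed between libraries with and without anti-IL-35, by the interaction term of the fit over all genes. It was not given whether libraries came from different animals, so the spread behind this term may be technical. The difference on the log2 scale was -1.58 for Mpo, -1.66 for Elane, -1.49 for Prtn3, -1.07 for Ctsg and -1.22 for Prss57. cGAMP was given with anti-IL-35 in the combination, where levels stood near those of anti-IL-35 alone, and without it in the cGAMP group, where levels stood above those of IgG. The genes were chosen with these contrasts known, and 6.78% of genes tested were called lower for the interaction, among them 9 of 9 secondary granule genes (median -1.38) and 15 of 15 tertiary granule and mature neutrophil genes (median -1.17). No technical or biological account of the difference was tested.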

How the results depend on the processing

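Of 695 member log2 fold changes under 20 alternatives, 644 kept their call and moved by less than the spread between libraries, 36 moved, 14 lost and 1 gained a call, and 0 of the called values changed sign. With scaling on NK receptor genes, the genes called for cGAMP against IgG were 1133, against 1834, and the members called higher in combination against anti-IL-35 were 2 (Mpo and Ctsg), against 1. That scaling moved the median of all genes in this comparison to 0.19, with 2476 genes called higher and 63 lower, against 521 and 308. Leaving out a library gave 0 to 1 there. Uncalled values that changed sign in that comparison were Prtn3 with NK receptor scaling (0.09), Prss57 without combination replicate 2 (-0.17) and Elane without anti-IL-35 replicate 1 (-0.006). The interaction call of Prss57 was also lost with library totals (-1.14) and NK receptor scaling (-0.91).

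NK receptor scaling moved the median of all genes to 0.22 in combination against IgG and -0.10 in cGAMP against IgG, and library totals moved it to -0.18 and -0.15 in the combination and with anti-IL-35, with members above these shifts in each. NK receptor scaling moved the median interaction term to 0.30. With library totals the share of calls that were higher was 28.8% in the combination, 32% with anti-IL-35 and 32% with cGAMP, against 67.6%, 62.7% and 72.5%, and with NK receptor scaling it was 96.5%, 72.3% and 33.5%. Of 2240 list counts, 172 moved by over 1.5 times.

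Same-numbered libraries did not deviate together (correlations -0.042 to 0.023 over 18 pairs), nor did libraries with different numbers (-0.03 to 0.038). With 3 libraries a group, this check cannot tell whether a number marks a shared batch. With a replicate block, 3183, 3461 and 1723 genes were called in the combination, anti-IL-35 and cGAMP against IgG, and the members called were 5 in each and 1 in combination against anti-IL-35. Low counts limit Prss57, with 21 to 25 reads in IgG libraries.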
